A study of Mus musculus with 9 samples.

Results

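The insulin-like growth factor 1 gene Igf1, its receptor gene Igf1r and the binding protein genes Igfbp2, Igfbp3, Igfbp4, Igfbp5, Igfbp6 and Igfbp7 were followed in mouse brown adipose cultures. They are 8 of 19858 genes with a probe set of their own on the array, and the brightest such probe set stood for each gene. They were listed with earlier results of these data known. Each of the 8 had a single probe set, and all 8 passed the intensity filter that left 13335 genes for testing. Igf2, Igf2r, Igfbp1 and Igfbpl1 were placed among the other pathway genes, and of these Igfbp1 and Igfbpl1 lay under the filter. The 3 conditions were compared on 9 Affymetrix arrays, 1 per culture: 5 µM 1-oleoyl lysophosphatidic acid (LPA, 3 cultures), 2.5 µM HA155, an inhibitor of the LPA-producing enzyme autotaxin (3 cultures), and the solvent DMSO as control (3 cultures). All cultures were grown from interscapular brown fat of male C57BL/6 mice aged 5 weeks. A precursor-enriched fraction was differentiated in medium with newborn calf serum and increasing insulin, so every group, control included, received insulin and whatever factors the serum carried. The labels place treatment at 9 days in vitro, whereas the design text speaks of treatment during differentiation. The comparisons ask which genes respond to LPA and which to blocking its production.

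IGF1 is a secreted hormone related to insulin that acts through IGF1R, a receptor tyrosine kinase of the same family as the insulin receptor. The classical binding proteins hold IGFs with high affinity, carry them and limit their access to the receptor, and proteases that cut the binding proteins release them again. In brown fat precursors, insulin and IGF1 signalling is known as a requirement for differentiation into fat cells.

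The LPA arrays lay apart from the others on the first principal component, which held 66.7% of the variance, at 19.6 to 28.7 against -15.5 to -11.3 for HA155 and -10.3 to -7.28 for control. The median spread of a gene within a group was 0.11 with LPA, 0.054 with HA155 and 0.074 in control (SD of log2 intensity, n = 3 each). All 9 fat cell markers followed passed the intensity filter. So did 13335 of the 19858 genes, so passing it does not establish adipocyte identity. Ucp1, the uncoupling protein that defines brown fat, lay under the filter level of 5.59 on the log2 scale in every group, at a mean of 5.17 with LPA, 5.29 with HA155 and 5.22 in control. Cidea, another brown fat gene, averaged 4.75 with LPA, 6.39 with HA155 and 4.92 in control. Its mean over all arrays lay under the filter level, so these differences were not tested.

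With LPA, 4 of the 8 genes rose against control and none fell: Igf1r, Igfbp3, Igfbp4 and Igfbp7. With HA155, 2 of the 8 fell and none rose: Igfbp3 and Igfbp5. Set against HA155, LPA cultures had 5 higher genes, Igfbp3, Igf1r, Igfbp5, Igfbp6 and Igfbp4, and none lower. Igfbp3 was the member that passed in all 3 comparisons, while Igf1 and Igfbp2 passed in none. The tests were limma's moderated test over all 13335 genes, adjusted by the Benjamini-Hochberg method, with a call at an adjusted p below 0.05. Among all genes tested, 12.2% rose and 10.8% fell with LPA against control, 0.607% rose and 0.427% fell with HA155 against control, and 13.7% were higher and 12.4% lower with LPA than with HA155. The median log2 change of the 8 genes was 0.25 for LPA against control, where the median of all genes was 0.01, and 0.03 for HA155 against control, where it was 0.00. Since the 8 were chosen with earlier results of these data known, their counts and medians describe them and are no test of the family. The 3 comparisons share their arrays in pairs, so they are not independent of each other. The groups did not overlap for 4 of the 8 genes in LPA against control, for 5 in HA155 against control and for 6 in LPA against HA155, where 33.1%, 16.8% and 38.7% of all genes tested did not overlap.

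**Figure D1:**
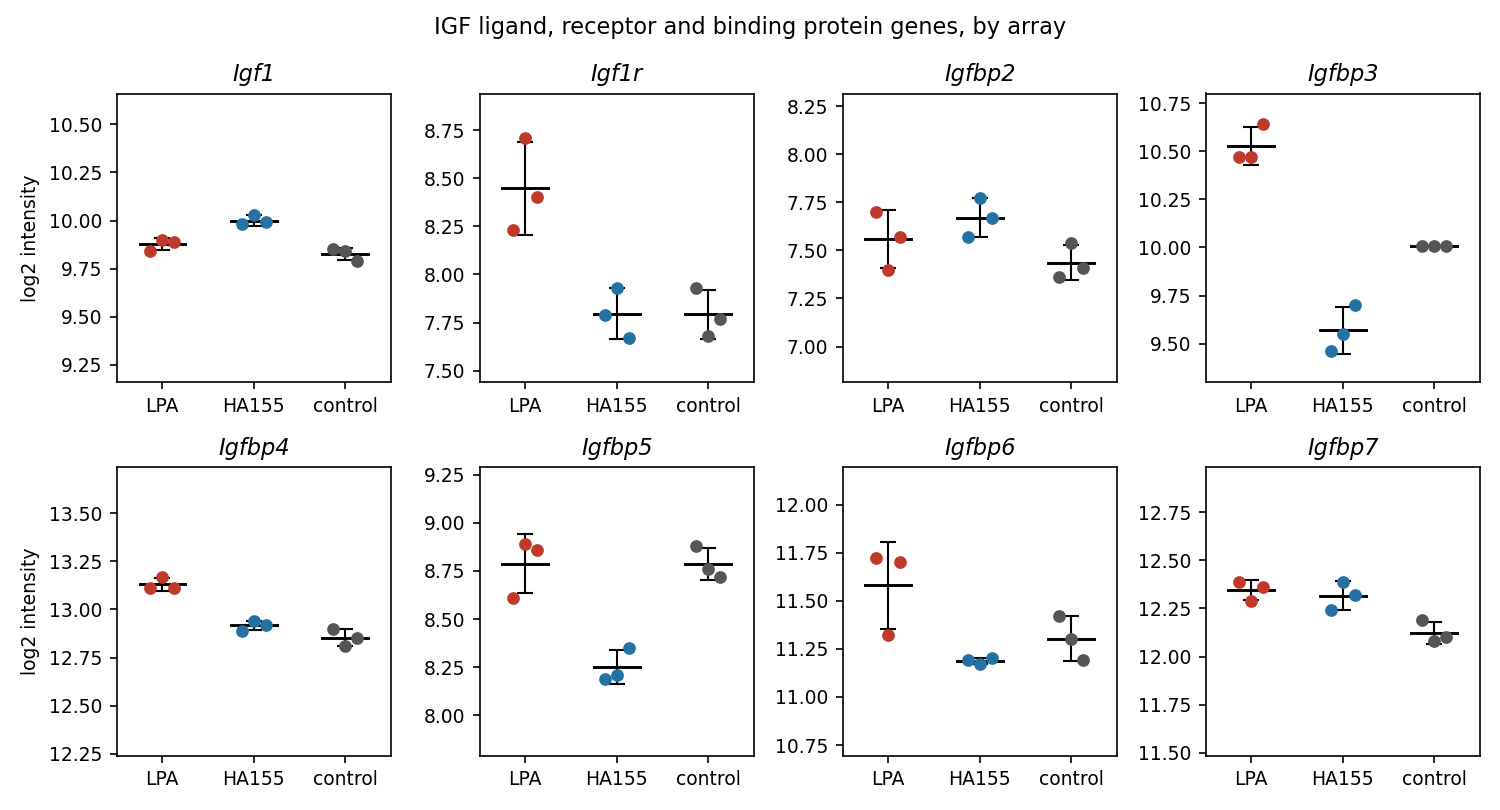
Log2 intensity of the 8 genes on each array (points; LPA red, HA155 blue, control grey; 3 arrays each) with the group mean and SD (lines and bars); every panel spans 1.5 log2 units around its own middle, since levels of different probe sets cannot be compared. Igfbp3 separates all 3 groups, Igf1r and Igfbp4 set LPA apart, and Igfbp5 sets HA155 apart.

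For the 5 genes that passed against control in either comparison, the 250 bases before the transcription start are shown because genes that moved with the same treatment can be set side by side there. The sequences are RefSeq's for the build GRCm38.p6, read 5′ to 3′ along the gene. They lie at chr7:67952007-67952256 (plus strand), chr11:7213924-7214173 (minus strand), chr11:99040994-99041243 (plus strand), chr1:72874866-72875115 (minus strand) and chr5:77408046-77408295 (minus strand). Capitals mark, on either strand, the letters GGGCGG, which are known as a GC box. They also mark TATAAA, the letters of a TATA box. The remaining capitals mark GGAATG, the core bound by TEAD transcription factors.
Igf1r: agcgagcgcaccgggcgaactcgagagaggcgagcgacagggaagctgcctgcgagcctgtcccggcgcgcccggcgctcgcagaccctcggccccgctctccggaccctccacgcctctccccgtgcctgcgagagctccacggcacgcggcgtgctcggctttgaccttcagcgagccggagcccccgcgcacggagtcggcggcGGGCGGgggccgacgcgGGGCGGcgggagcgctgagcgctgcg
Igfbp3: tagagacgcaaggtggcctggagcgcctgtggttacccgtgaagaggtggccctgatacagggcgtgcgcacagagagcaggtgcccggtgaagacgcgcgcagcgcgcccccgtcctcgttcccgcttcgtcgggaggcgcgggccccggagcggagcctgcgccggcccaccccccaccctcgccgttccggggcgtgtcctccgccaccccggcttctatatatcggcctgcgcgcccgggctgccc
Igfbp4: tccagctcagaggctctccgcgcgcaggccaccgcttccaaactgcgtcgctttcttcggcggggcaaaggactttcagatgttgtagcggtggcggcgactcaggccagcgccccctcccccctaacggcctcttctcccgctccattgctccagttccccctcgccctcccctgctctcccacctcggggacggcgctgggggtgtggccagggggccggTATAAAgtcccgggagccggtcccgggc
Igfbp5: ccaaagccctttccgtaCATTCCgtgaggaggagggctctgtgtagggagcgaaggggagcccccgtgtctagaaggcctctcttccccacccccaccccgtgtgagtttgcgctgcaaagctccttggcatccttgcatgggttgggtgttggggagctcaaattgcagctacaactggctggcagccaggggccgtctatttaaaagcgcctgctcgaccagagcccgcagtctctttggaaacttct
Igfbp7: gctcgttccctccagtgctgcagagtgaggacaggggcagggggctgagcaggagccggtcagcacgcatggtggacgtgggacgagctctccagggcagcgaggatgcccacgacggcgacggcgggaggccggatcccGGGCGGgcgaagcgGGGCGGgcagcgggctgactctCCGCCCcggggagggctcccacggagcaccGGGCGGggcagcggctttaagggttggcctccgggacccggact

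The stretches differed in base composition and in these letters. Over the window of 300 bases that RefSeq's table gives per start, which runs 50 bases past it, the G and C share was 76.0% for Igf1r, 71.7% for Igfbp3, 71.3% for Igfbp4 and 73.3% for Igfbp7, but 56.3% for Igfbp5, where the median of all 32851 promoters was 52.7%. The same window held 48, 37, 27 and 33 CG pairs in the first 4 of these genes and 10 in Igfbp5, where the median was 7. GGGCGG occurred in 35.7% of all promoters, and here 2 times in Igf1r and 4 times in Igfbp7. TATAAA occurred in 13.6% of promoters, and its match in Igfbp4 began 28 bases before the start. GGAATG occurred in 14.7% of promoters, and among the members only in Igfbp5, on the opposite strand. TGANTCA, the core bound by AP-1, occurred in 7.81% of promoters and in none of these 5. It was found at Igf1, 37 bases before the start, and at the second of the pair of annotated starts of Igfbp2. The search had been planned for the 4 genes called with LPA against control and for GGAATG and TGANTCA alone, and it found neither motif there. The other genes were searched in addition, and GGGCGG and TATAAA were added after the expression values were known.

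Igf1, the ligand, did not pass in any comparison. Its log2 intensity was 9.84, 9.90 and 9.89 in the LPA cultures, 9.98, 10.03 and 9.99 in the HA155 cultures and 9.85, 9.84 and 9.79 in the control cultures. LPA and control overlapped, and the 3 HA155 arrays lay above all others. The difference between LPA and control was 0.05 (SE 0.053, 95% confidence interval -0.06 to 0.17, limma adjusted p = 0.520). For HA155 against control it was 0.18 (SE 0.053, interval 0.06 to 0.29), which missed the threshold after adjustment over all genes (limma adjusted p = 0.265, unadjusted p = 0.00703 in the model across genes). Of the genes tested, 8.85% changed by more with HA155. HA155 was the highest of the 3 groups for this gene, and LPA and control were not separated beyond their spread.

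Igf1r, the receptor, rose with LPA by 0.65 on the log2 scale, or 1.57-fold. The LPA arrays held 8.23, 8.71 and 8.40, against 7.79, 7.93 and 7.67 with HA155 and 7.93, 7.68 and 7.77 in control. Every LPA array lay above every other array, and HA155 and control covered almost the same range. The SE was 0.12 and the 95% confidence interval 0.39 to 0.91 (limma adjusted p = 0.00216, n = 3 each), and 4.53% of the genes tested changed by more in either direction. LPA array 8 was the highest of its group, and the change stayed between 0.51 and 0.76 over 20 alternative settings, with the call kept in all of them. HA155 against control measured 0.00 with an interval of -0.26 to 0.26 (limma adjusted p = 0.999). That interval reaches from 0.835-fold to 1.20-fold.

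The insulin receptor gene Insr, the receptor of the same family as Igf1r, moved the other way with LPA. It fell by 0.61 (SE 0.064, limma adjusted p = 5.22e-05), to a mean of 9.00 with LPA, against 9.61 in control, and measured 0.15 with HA155 (limma adjusted p = 0.577). Igf2r, which takes up and clears IGF2, rose with LPA by 0.33 (limma adjusted p = 0.0126), though not when control array 3 was left out (limma adjusted p = 0.0567). Igf2, the other ligand, averaged 8.05 with LPA, 7.50 with HA155 and 7.75 in control. Its change with LPA against control was 0.30 and did not pass (limma adjusted p = 0.0744), while the difference between LPA and HA155, 0.55, did (limma adjusted p = 0.00306); it stands outside the rule for named genes and is given as the second ligand.

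Igfbp3, the main carrier of IGFs in blood, was higher with LPA and lower with HA155. Its log2 intensity was 10.47, 10.47 and 10.64 with LPA, 9.46, 9.55 and 9.70 with HA155 and 10.01 on each of the 3 control arrays. None of the 3 groups overlapped with another. It rose by 0.51 with LPA (SE 0.074, 1.43-fold, 95% confidence interval 0.35 to 0.68, limma adjusted p = 0.000439). It fell by 0.44 with HA155 (SE 0.074, interval -0.60 to -0.28, limma adjusted p = 0.0227). LPA exceeded HA155 by 0.95, or 1.94-fold (interval 0.79 to 1.12, limma adjusted p = 3.97e-06). Of the genes tested, 0.87% changed by more with HA155, 7.54% with LPA and 2.07% between the compounds.

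The 3 control arrays held an identical intensity for Igfbp3, as they did for 175 of the 13335 genes, so the spread behind its SE is likely understated. Such ties also occurred on the 3 HA155 arrays for 303 genes and on the 3 LPA arrays for 108, and their cause is not known. A fit of the LPA and HA155 arrays alone, which leaves the control arrays out, gave 0.95 with a limma adjusted p of 0.000173. Every fit against control still used such control arrays, so neither call against control was checked free of the tie. With that limit, the rise with LPA kept its call in all 20 alternative settings (limma adjusted p up to 0.00293). The fall with HA155 lost it when any control array or HA155 array 4 or 5 was left out (limma adjusted p up to 0.123), with the change between -0.50 and -0.39 throughout.

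Igfbp5, a binding protein that also attaches to extracellular matrix, fell with HA155 and did not pass with LPA. The LPA arrays held 8.61, 8.89 and 8.86, the HA155 arrays 8.19, 8.21 and 8.35 and the control arrays 8.88, 8.76 and 8.72. HA155 lay below all other arrays, and LPA and control overlapped. The fall was 0.54 with HA155, to 0.689-fold of control (SE 0.084, interval -0.72 to -0.35, limma adjusted p = 0.0146), and 0.517% of genes tested changed by more. For LPA against control the interval ran from -0.19 to 0.18 (limma adjusted p = 0.992). LPA exceeded HA155 by 0.54 (limma adjusted p = 0.000684). The call against control was lost without control array 1 or 2 or HA155 array 4 or 5 (limma adjusted p up to 0.107), while that between the compounds held in all 20 alternatives (limma adjusted p up to 0.00530).

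Both falls with HA155, of Igfbp3 and Igfbp5, therefore rest on nearly every array: of the member genes called for HA155, 0 remained without control array 1 or 2 or HA155 array 4 or 5, and 1 without control array 3. Where the call was lost, the sizes stayed close to those with all arrays. Beside them Dlk1, a marker of fat precursors, fell with HA155 by 0.82 (limma adjusted p = 0.000609), whereas the other 10 tested genes of the precursor and fibroblast list did not pass, at a list median of -0.15. Of the 9 adipocyte markers tested, 2 rose with HA155 in the same arrays, where 0.607% of all genes rose. These were Cidec by 0.65 and Lep by 0.66 (limma adjusted p = 0.000756 and 0.00257). The part of either list in the falls of Igfbp3 and Igfbp5 was not tested.

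**Figure D2:**
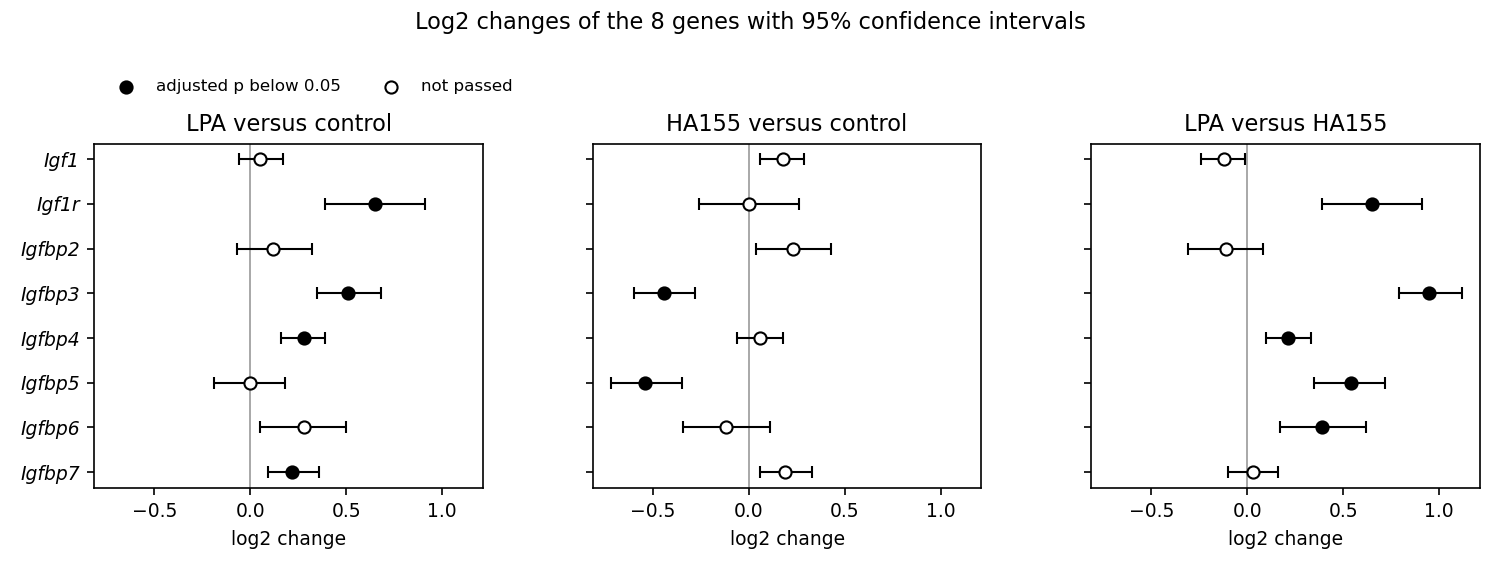
Log2 change (horizontal axis) of the 8 genes in the 3 comparisons with 95% confidence intervals from the limma fit; filled points have an adjusted p below 0.05 over all 13335 genes. Igfbp3 lies at 0.51 with LPA and at -0.44 with HA155, Igfbp5 at -0.54 with HA155, and Igf1r at 0.65 with LPA.

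Igfbp4, a binding protein known to inhibit IGF action until it is cut by the protease PAPP-A, rose with LPA by 0.28, or 1.21-fold. The values were 13.11, 13.17 and 13.11 with LPA, 12.89, 12.94 and 12.92 with HA155 and 12.90, 12.81 and 12.85 in control. All LPA arrays lay above the rest, and HA155 and control overlapped. The SE was 0.054 (interval 0.16 to 0.39, limma adjusted p = 0.00325), and 20.8% of the genes tested changed by more. HA155 against control measured 0.06 (limma adjusted p = 0.908). The difference of LPA from HA155, 0.21, passed (limma adjusted p = 0.0121) but not without HA155 array 4 (limma adjusted p = 0.0557).

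Igfbp7, a more distant member of the family that binds IGFs weakly, was lowest in control. Its arrays held 12.39, 12.29 and 12.36 with LPA, 12.24, 12.39 and 12.32 with HA155 and 12.19, 12.08 and 12.10 in control. Both treated groups lay above control on every array and overlapped each other. The rise with LPA was 0.22 (SE 0.061, interval 0.09 to 0.36, limma adjusted p = 0.0212). The difference with HA155 was close in size, 0.19 (interval 0.06 to 0.33), and did not pass (limma adjusted p = 0.304). The 2 compounds differed by 0.03 (interval -0.10 to 0.16, limma adjusted p = 0.782). The LPA call was lost in 5 of 20 alternatives: in the fit of the 2 groups alone, after quantile normalization, and without control array 2, control array 3 or LPA array 7 (limma adjusted p up to 0.0807).

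Igfbp6, which prefers IGF2 over IGF1, varied more among the LPA cultures than among the HA155 or the control cultures. The LPA arrays held 11.72, 11.32 and 11.70, the HA155 arrays 11.19, 11.17 and 11.20 and the control arrays 11.42, 11.30 and 11.19. LPA array 8 fell inside the control range, and the HA155 arrays lay close together at its lower end. LPA against control measured 0.28 (SE 0.10, interval 0.05 to 0.50) and did not pass (limma adjusted p = 0.0774). Without LPA array 8 it measured 0.41 and passed (limma adjusted p = 0.00204), and it also passed with array weights. That array lay farthest out of all on the first principal component, at 28.7. LPA exceeded HA155 by 0.39 (limma adjusted p = 0.0148), a call that was lost without LPA array 7 or 9 (limma adjusted p up to 0.0564).

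Igfbp2, a binding protein known from precursor cells of white fat, did not pass in any comparison. Its arrays held 7.70, 7.40 and 7.57 with LPA, 7.57, 7.77 and 7.67 with HA155 and 7.36, 7.54 and 7.41 in control. HA155 lay above control without overlap, and LPA overlapped both. The difference of HA155 from control was 0.23 (interval 0.04 to 0.43, limma adjusted p = 0.453), and 4.35% of genes tested changed by more. Igfbp2 and Igfbp5 are neighbours on chromosome 1 in the RefSeq annotation of GRCm38.p6, with no other coding gene between them. With HA155 Igfbp5 fell by 0.54 and Igfbp2 measured 0.23. Igfbp1 stands next to Igfbp3 on chromosome 11 and lay under the filter level in every group, at 5.11 with LPA, 5.19 with HA155 and 5.16 in control.

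**Figure D3:**
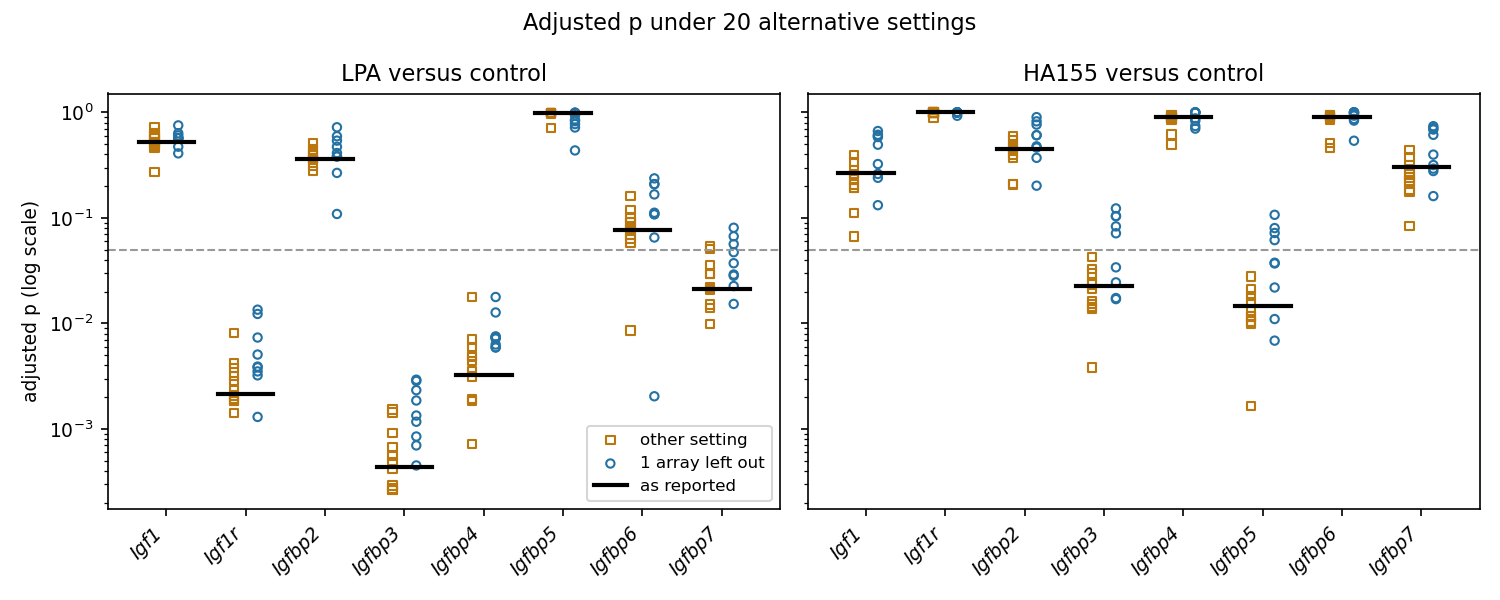
Adjusted p (log axis) of the 8 genes in LPA against control (left) and HA155 against control (right): the bar is the value as reported, squares are the 11 other settings and circles the 9 fits with 1 array left out; the dashed line marks 0.05. Igf1r, Igfbp3 and Igfbp4 stay under the line throughout with LPA, while Igfbp3 and Igfbp5 cross it with HA155 only when an array is left out.

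Beyond the 8 genes, 82 genes of the IGF pathway were listed by role, of which 74 had a probe set of their own and 67 were tested. With LPA 16 rose and 14 fell against control, at a median log2 change of 0.04. Among all genes tested 12.2% rose and 10.8% fell in this comparison, and each pathway or marker list below is to be read against these shares. With HA155 none passed against control, where 0.607% of all genes rose and 0.427% fell, although 9 had an unadjusted p below 0.05 in limma. Lists below in which none passed with HA155 lie near these shares. Between LPA and HA155, 19 were higher and 13 lower with LPA, against 13.7% and 12.4% of all genes tested. Of the 30 called with LPA, 21 kept the call in all 20 alternatives. For HA155 the count of 0 became 3 with array weights and 2 in the fit of the 2 groups alone: the protease genes Plau and Htra1, and with weights also Plat.

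Of 15 tested genes of binding protein proteases and their inhibitors, 8 rose and 1 fell with LPA, against 12.2% and 10.8% of all genes. The other 6 did not pass, and the list median was 0.25. The count of rises was 7 to 8 over the alternatives, since Adam12, a membrane protease named for this loss, kept its call in 8 of 20. Mmp3, the matrix protease stromelysin, rose by 1.20 (SE 0.074, limma adjusted p = 1.29e-06), to a mean of 9.86 with LPA, against 8.66 in control. Pappa, which encodes the protease that cuts IGFBP4, rose by 0.81 (SE 0.12, limma adjusted p = 0.000500), so that protease and substrate transcripts rose in the same cultures. Plat and Plau, the activators of the protease plasmin, rose by 0.68 and 0.48 (limma adjusted p = 7.91e-05 and 6.50e-05). The gene that fell was Ctsd, a lysosomal protease, by 0.23 (limma adjusted p = 0.0112). With HA155 none of the 15 passed, and the median was -0.09. Plau was nearest at -0.25 (limma adjusted p = 0.0532) and passed in 7 of 20 alternatives.

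Among other ligands, receptors and carriers, 2 of 6 tested genes rose and 2 fell with LPA, against 12.2% and 10.8% of all genes. The list median was 0.17, and none passed with HA155. Besides Insr and Igf2r, Igfals fell by 0.98 (SE 0.082, limma adjusted p = 1.10e-05), to a mean of 7.24 with LPA, against 8.22 in control. Igfals encodes the acid-labile subunit, which joins IGF and IGFBP3 or IGFBP5 in the large complex of blood. Lrp1, a large endocytic receptor, rose by 0.54 (limma adjusted p = 0.00278). Igfbp1, Igfbpl1 and Insrr lay under the filter level.

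Among receptor substrates and signalling genes 1 of 25 rose and 8 fell with LPA, against 12.2% and 10.8% of all genes tested. The list median was -0.05. Over the alternatives the counts ran from 0 to 4 rises and from 4 to 9 falls. Without control array 3 they were 0 and 4, and without LPA array 7 there were 4 rises. The 1 rise, of Shc1, lost its call in 9 of 20 alternatives. The falls of Pik3r1, Pdpk1 and Mtor each lost theirs in 10 of 20, and that of Grb2 in 2. The genes named next as falling kept their calls in all 20. Pik3cb, a catalytic subunit of phosphoinositide kinase, fell by 1.13 (SE 0.096, limma adjusted p = 1.20e-05). Eif4ebp1, a repressor of translation that mTOR switches off, fell by 0.90 (limma adjusted p = 4.80e-06). Akt2, the kinase known for insulin-stimulated glucose uptake in fat, fell by 0.53, and the transcription factor gene Foxo1 by 0.45 (limma adjusted p = 6.81e-05 and 0.00353). The substrates Irs1 and Irs2 measured -0.16 and -0.06 and did not pass (limma adjusted p = 0.204 and 0.690). With HA155 none of the 25 passed, at a median of -0.01.

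Of 12 genes listed as negative regulators of receptor signalling, 2 rose and 1 fell with LPA, near the 12.2% and 10.8% of all genes tested. The list median was 0.03. Grb10, an adaptor that inhibits both receptors, rose by 0.39 (limma adjusted p = 0.00270). Trib3, an inhibitor of Akt, rose by 0.30 (limma adjusted p = 0.0145) but not with array weights or without control array 1. Sh2b2, an adaptor that binds the insulin receptor, fell by 0.96 (limma adjusted p = 9.32e-05). None passed with HA155, at a median of 0.03.

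The growth hormone axis, which drives Igf1 transcription in liver and other tissues, moved with LPA in both directions. Of its 9 tested genes 3 rose and 2 fell, against 12.2% and 10.8% of all genes, at a median of 0.03. The receptor gene Ghr fell by 0.74 (SE 0.074, limma adjusted p = 3.90e-05), to a mean of 10.70 with LPA, against 11.44 in control. Stat5a, a transcription factor of this axis, fell by 0.50 (limma adjusted p = 0.000602), while the kinase gene Jak2 rose by 0.56 and Stat3 by 0.34 (limma adjusted p = 0.00102 and 0.00433). Igf1 itself measured 0.05 in the same comparison. None passed with HA155, at a median of 0.09.

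**Figure D4:**
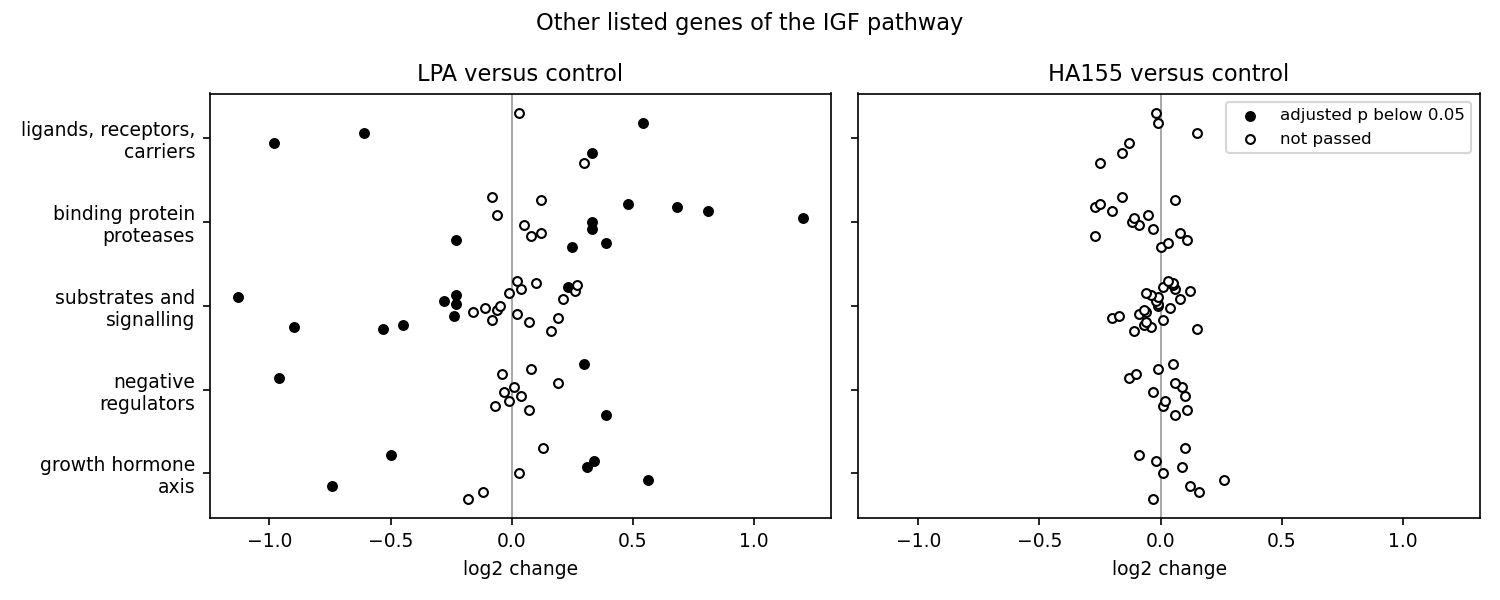
Log2 change (horizontal axis) of the 67 tested pathway genes, by role, for LPA against control (left) and HA155 against control (right); filled points have a limma adjusted p below 0.05, and height within a row only follows the alphabet. With LPA 16 points are filled above 0 and 14 below it; with HA155 none is filled.

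Markers of cell types moved with LPA in the same arrays. In bulk cultures, fewer cells of a type and less RNA per cell cannot be told apart. All 9 adipocyte markers fell with LPA, where 10.8% of all genes tested did, at a median of -1.43. Cidec and Slc2a4, the pair with the smallest p, measured -1.88 and -1.94, and Retn had the largest fall of the list at -1.95. With HA155 the median of this list was 0.16. Their summed intensity was 10200 to 11400 with LPA, 25400 to 27100 with HA155 and 23600 to 24700 in control. Of 11 precursor and fibroblast markers, 6 rose and 1, Lum, fell with LPA, against 12.2% and 10.8% of all genes. Thy1 measured 0.76 and Pdgfrb 0.70. Over the alternatives 4 to 8 rose and 0 to 1 fell. Dlk1 lost the call for its rise in 7 of 20, and Lum the call for its fall in 6. The summed intensity of this list was 41900 to 44200 with LPA, 30900 to 33100 with HA155 and 34000 to 35700 in control. The part of these lists in the changes of Igf1r, Igfbp3, Igfbp4 and Igfbp7 was not tested.

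Markers of other cell types were also followed. Among all genes tested, 12.2% rose and 10.8% fell with LPA, and 0.607% rose and 0.427% fell with HA155. The sums of these marker lists run over every listed gene with a probe set of its own, including those under the filter level. Of 10 macrophage markers, 6 lay under the filter level, among them Adgre1 and Ptprc, and none of the 4 tested passed with either compound in limma (at an unadjusted p below 0.05, 0 with LPA and 1 with HA155). The macrophage sum was 632 to 934 with LPA, 838 to 979 with HA155 and 651 to 758 in control. Of 10 endothelial markers Pecam1, Kdr and Emcn lay under the filter level, and 2 of the 7 tested, Eng and Tek, rose with LPA by 0.46 and 0.37. The other 5 did not pass and lay between -0.15 and 0.17, and the list median was -0.02. The endothelial sum was 1160 to 1210 with LPA, 906 to 973 with HA155 and 990 to 997 in control. The sums of the precursor and the endothelial list both put LPA above control and HA155 below it. With HA155 the endothelial list median was -0.04, so its sums do not stand for a shift of the whole list. Of 10 tested smooth muscle and pericyte markers 4 rose and 2 fell with LPA (4100 to 4250 with LPA, 3590 to 4140 with HA155, 3180 to 3500 in control), with Mcam at -0.96 and Des at 0.58. Mcam also fell with HA155, by 0.32 (limma adjusted p = 0.0392), a call lost in 10 of 20 alternatives (limma adjusted p up to 0.182). Of 8 tested skeletal muscle markers 4 rose with LPA and 1, Myh1, with HA155 (1260 to 1460 with LPA, 1050 to 1120 with HA155, 988 to 1050 in control). The part of these lists in the changes of the IGF genes was not tested.

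For each of the 8 genes the tested genes most like it over the 9 arrays were looked up by Pearson's r of the log2 values, as a description. The r runs over all 3 groups at once and the genes were picked for it. High values and like changes with treatment therefore follow from the choice. The tied control values of Igfbp3 enter its r. Nearest to Igfbp3 were H13, Glmp and Mfap4 (r = 0.991, 0.988 and 0.987), and Mfap4, a microfibril protein of the matrix, measured 0.58 with LPA and -0.36 with HA155 against control. Nearest to Igf1r were Lrp6, Srgap3 and Fndc4 (r = 0.996, 0.996 and 0.992), and Lrp6, a Wnt co-receptor, measured 0.38 with LPA and -0.01 with HA155. Igfbp4 went with Plxdc2, Cthrc1 and Osmr (r = 0.995, 0.992 and 0.992), which measured 0.96, 1.30 and 0.97 with LPA. Igfbp5 went with Tnxb, Ldb2 and Agtr2 (r = 0.960, 0.953 and 0.939), which measured -0.40, -0.58 and -0.50 with HA155. Igfbp7 went with Sfrp4, Aldh1a2 and Eif4a2 (r = 0.973, 0.954 and 0.950), and Sfrp4, a secreted Wnt modulator, measured 0.79 with LPA and 0.58 with HA155. Igfbp6 went with Dpp7, Tnfaip6 and Gstt1 (r = 0.988, 0.983 and 0.975). Igf1 went with Vldlr, Fmo2 and Rbm46 (r = 0.954, 0.948 and 0.935), and Igfbp2 with Lrpap1, Tnfsf14 and Ankk1 (r = 0.923, 0.910 and 0.879). Among the members themselves the pair most alike was Igf1r and Igfbp4 (r = 0.939) and the pair most opposed was Igf1 and Igfbp5 (r = -0.781).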

How the data were processed

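RNA of 9 cultures was hybridised to Affymetrix mouse gene arrays, and the values used are the deposited intensity of every probe set, not log-transformed to judge by their range. The values were made by the authors with RMA, per the submitters' processing notes (version and genome build not given in the sources used here). RMA equalises the arrays' distributions, which removes any global shift and compresses changes of dim and very bright probe sets. They were converted to log2 as they stood. Of 35432 probe sets 21706 had 1 symbol in GEO's platform annotation, 1605 had several and were not used, and 12121 had none listed. Genes whose mean lay under a filter level of 5.59 on the log2 scale, the 40th percentile over the probe sets, were left out.

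Differences were tested two-sided with limma 3.58.1 in R 4.3.3 (lmFit, eBayes) on all 9 arrays, with 6 residual degrees of freedom and Benjamini-Hochberg adjustment over 13335 genes. An exact test of 3 against 3 arrays cannot go below p = 0.1. Precision is limited by having 3 arrays a group, and a log2 change had a median SE of 0.076. The most similar pair of arrays shared 2649 identical values. The labels name cultures by subject number and give no batch, so treatment and any batch aligned with it cannot be told apart. Whether each subject was a separate animal is not said, so p-values measure the spread between these cultures, which may be partly technical. The procedure was tested on simulated data. Filters, offset, variance prior, array weights, probe set choice, normalization and each array left out were tried as alternatives. The genes and lists were chosen with earlier results of these data known. Named genes were the 8 members, at most 4 genes of smallest p per pathway list, 2 per marker list (all where few passed) and the 3 nearest patterns per member; other names were chosen after their values were seen.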

Additional observations from a re-analysis of the deposited data

How the results depend on the processing

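The counts of called genes and the changes of 75 single genes were recomputed under 20 alternatives: 11 other settings and 9 fits with 1 array left out. The 75 genes are the 8 members and every pathway or marker gene called in a comparison. For marker genes and counts per list this was added after seeing the data. Summed intensities, list medians and the correlations between genes were not recomputed. None of these genes had a called change that reversed its sign. Of 1792 values that passed neither as reported nor under the alternative, 37 changed sign. The count of members called with LPA against control was 4, and 3 to 5 under the alternatives, and for LPA against HA155 it was 5, and 4 to 5. For HA155 against control it was 2 under all 11 other settings and 0 to 2 with 1 array left out. The count of other pathway genes called with HA155 against control, 0, became 1 with the 60th percentile filter, the offset of 16, an intensity trend or quantile normalization, 2 in the fit of the 2 groups alone and 3 with array weights, and it was 0 to 1 with 1 array left out. It was 30 with LPA against control (22 to 32 over all alternatives) and 32 with LPA against HA155 (25 to 34). Except where fewer samples or genes entered, the cause was not tested. No paired analysis was possible because the groups share no subject number. Detection above background was not assessed per probe set, and dim genes such as Igfbp1 limit what can be read there.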
